A study of Mus musculus with 8 samples.

Results

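The set comprised 10 mouse genes of the G1 step of the cell cycle. They were the D-type cyclins Ccnd1, Ccnd2 and Ccnd3, the E-type cyclins Ccne1 and Ccne2, the kinases Cdk4 and Cdk6, the pocket protein gene Rb1, and the INK4 genes Cdkn2a and Cdkn2b. They were chosen by name for their function, with earlier results of these data known. All 10 were found once among the 23389 gene symbols listed in each of 8 RNA-seq expression tables. All 10 passed a filter of at least 1 RPKM (read counts scaled by transcript length and by sequencing depth) in at least 2 libraries, which kept 13200 genes.

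The tables came from 4 kinds of mouse cell, with 2 libraries of each. ES denotes embryonic stem cells of the D3-GFP line from strain 129S2/SvPas, and MEF denotes embryonic fibroblasts of strain BALB/c; the labels give the libraries of each as biological replicates. The other 2 kinds were induced pluripotent stem (iPS) clones of strain BALB/c, each clone derived independently. The 3F+IL6 clones were made from embryonic fibroblasts with Oct4, Klf4 and Sox2 and were treated with 10 ng/mL of the cytokine IL6, whereas the 4F clones were made with 4 factors. Strain and cell type therefore changed together in every comparison with ES cells, and factor set and IL6 changed together between the clone types; these cannot be told apart here. The sources used here do not give how the factors were delivered or the passage of each culture. The p-values rest on differences between 2 cultures or clones of a kind, pooled for each gene over the 4 kinds and drawn toward other genes. Kinds with a tight pair therefore lower the spread used for those with a wide one.

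D-type cyclins activate CDK4 and CDK6, which begin the phosphorylation of the retinoblastoma protein RB1. Cyclin E with CDK2 continues it, and E2F factors released from RB1 then switch on genes of DNA replication. The INK4 proteins bind CDK4 and CDK6 and block their activity, and the locus that encodes them is known as a barrier to reprogramming of fibroblasts. Mouse ES cells are known for a short G1 phase with high cyclin E activity.

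The depth estimated from the smallest steps between low values was 11800000 to 18300000 reads per library. The 10 pluripotent cell markers summed to between 5039 and 6165 RPKM in ES cells and all 4 clones and to 5.97 and 8.05 RPKM in the MEF libraries. Single markers differed between clones and ES cells in both directions. By the test described below, 3 were higher and 4 lower in 3F+IL6 clones (33.1% and 30.3% of all genes). In 4F clones 2 were higher and 4 lower (33.7% and 33.5%). Zfp42 averaged 460 RPKM in ES cells, 215 in 3F+IL6 and 193 in 4F clones, and Fgf4 averaged 32.6, 94.2 and 91.0 RPKM. The 16 fibroblast markers summed to 5210 and 5151 RPKM in MEF, 77.8 and 80.8 RPKM in ES cells, and in the clones to 385 and 545 RPKM (3F+IL6) or 400.2 and 336 RPKM (4F). The labels thus matched these markers, and all 16 fibroblast markers were at or above 1 RPKM in each clone, against 5 of 16 in each ES library. Markers of endoderm and trophoblast summed to 4.79 to 13.1 RPKM over the libraries. Those of neural and mesoderm cells summed to 23.9 and 24.1 RPKM in ES cells and 7.64 to 12.4 RPKM in clones. In MEF they summed to 29.7 and 29.96 RPKM. Those of immune and endothelial cells summed to 4.74 and 4.84 RPKM in MEF and 36.2 to 59.4 RPKM in ES cells and clones. The 3F+IL6 clones differed most from each other, with a median absolute log2 difference of 0.18 over genes, against 0.10 for the 4F clones, 0.06 for ES cells and 0.05 for MEF.

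Differences between groups were tested with limma on log2(RPKM + 1) over all 13200 genes, and a gene was called where its Benjamini-Hochberg adjusted p was under 0.05. This scale understates changes of genes near 1 RPKM. Against MEF, ES cells had 3 of the 10 genes called higher and 4 called lower, where 49.7% and 32.0% of all genes tested were called in those directions. The 3F+IL6 clones had 4 higher and 3 lower than MEF (49.4% and 32.6% of all genes), and the 4F clones had 5 higher and 4 lower (49.2% and 34.4%). Against ES cells, 5 of the 10 genes were called higher and 2 lower in 3F+IL6 clones (33.1% and 30.3% of all genes), and 5 were higher and 3 lower in 4F clones (33.7% and 33.5%). None was called between the clone types, where 0.773% of all genes were called higher and 0.568% lower in 3F+IL6; 4 of the 10 had an unadjusted p under 0.05 there, as had 24.2% of all genes. Each of these counts lies within a few genes of what the shares of all genes give for 10 members, so they describe the set without setting it apart. The comparisons share groups, so their counts are not independent of each other.

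**Figure D1:**
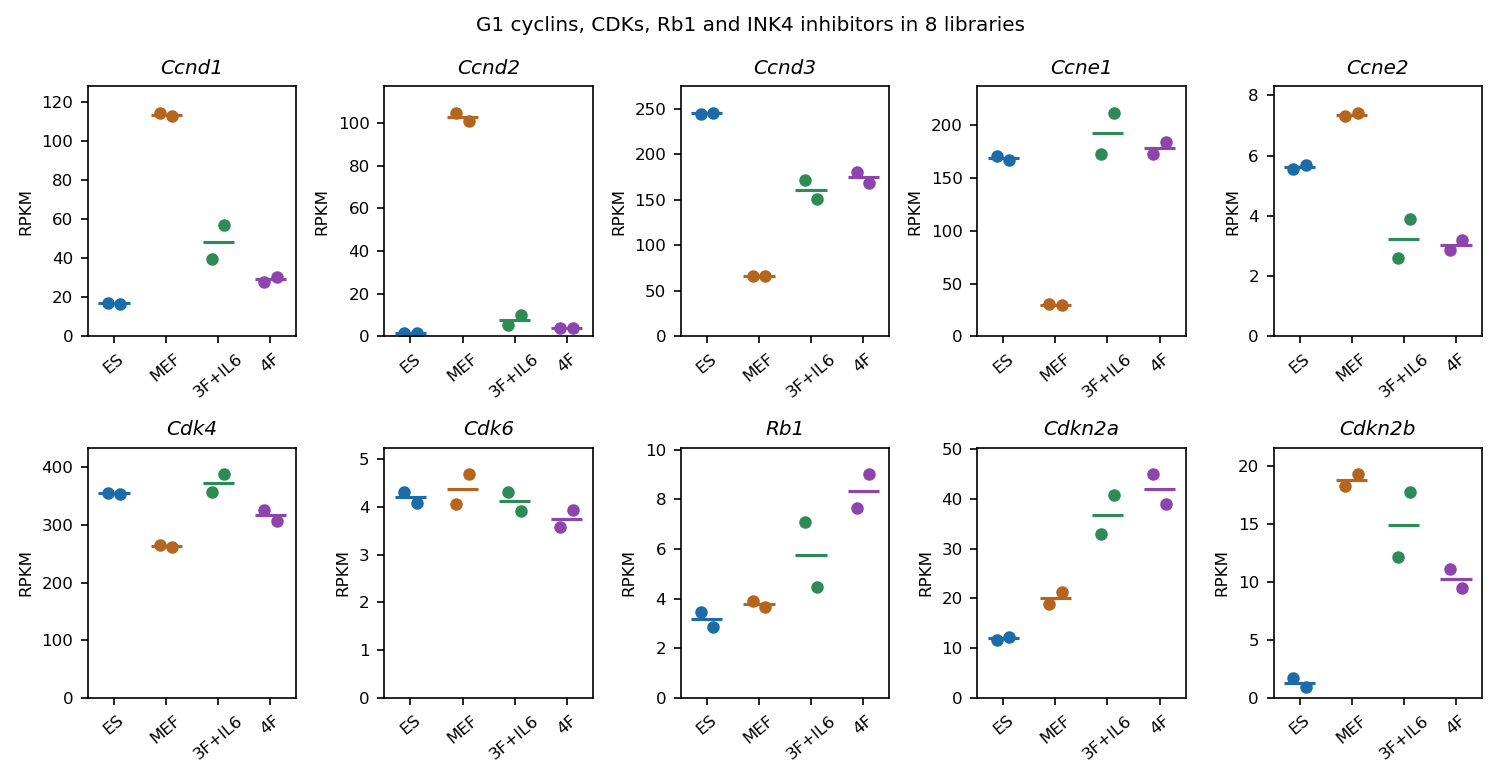
Expression of the 10 genes in RPKM (vertical axes, each from 0 and scaled to its gene) in ES cells, MEF, 3F+IL6 clones and 4F clones. Points are libraries and lines are the means of 2; Ccnd1 and Ccnd2 were highest in MEF, Ccne1 lowest in MEF, and Cdkn2a highest in the clones.

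The D-type cyclins were exchanged between cell kinds more than they changed in sum. Ccnd3 was the main D cyclin transcript of ES cells and of all 4 clones, while MEF carried mostly Ccnd1 and Ccnd2. In MEF the sum of the 3 genes was 285 and 279.6 RPKM, in ES cells 264 and 264 RPKM, in 3F+IL6 clones 216 and 218 RPKM, and in 4F clones 213 and 203 RPKM. Ccnd3 made up 92.8% and 93.1% of that sum in ES cells, 23.2% and 23.7% in MEF, 79.2% and 69.2% in 3F+IL6 clones, and 85.1% and 82.9% in 4F clones. In bulk RNA such as this, fewer cells of a type and less RNA per cell cannot be told apart.

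**Figure D2:**
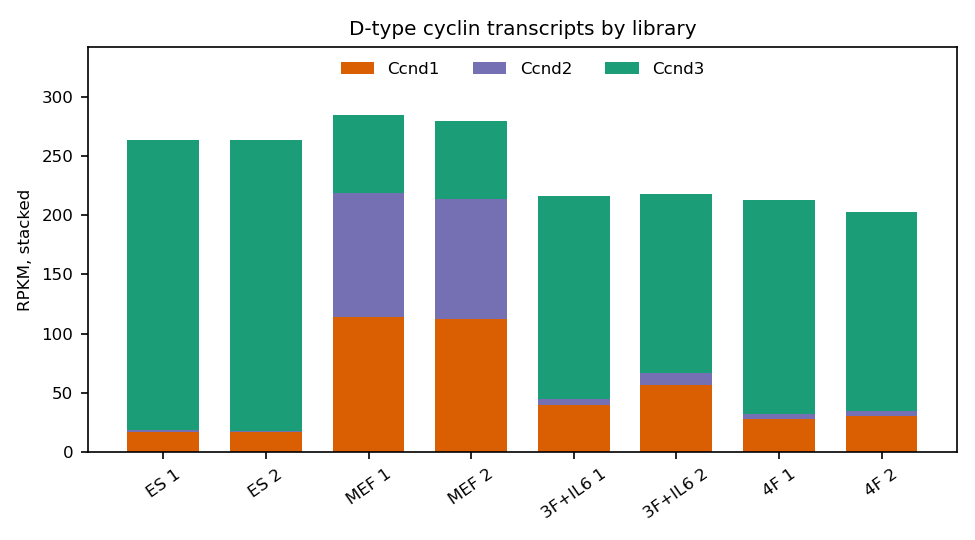
Ccnd1, Ccnd2 and Ccnd3 stacked in each of the 8 libraries; the vertical axis is RPKM from 0 and each bar is 1 library. Ccnd3 fills 92.8% and 93.1% of the ES bars and 23.2% and 23.7% of the MEF bars, with the clones between.

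Ccnd1, which encodes the D cyclin best known as a target of mitogen signalling (chr7:144929931-144939925, minus strand, mm10), was listed at 17.3 and 16.6 RPKM in ES cells and at 114 and 112.5 RPKM in MEF. The 3F+IL6 clones had 39.5 and 57.1 RPKM, and the 4F clones had 27.9 and 30.6 RPKM. No 2 groups overlapped, and the order was MEF, 3F+IL6, 4F, ES. MEF exceeded ES cells by 6.68-fold in mean RPKM (ES minus MEF, log2 difference −2.67 ± 0.15 SE; limma adjusted p = 2.78e-06). Both clone types stayed above ES cells, by 1.43 ± 0.15 in 3F+IL6 (adjusted p = 0.00023) and 0.75 ± 0.15 in 4F (adjusted p = 0.00393) on the log2 scale. They were below MEF by 1.24 and 1.92 on that scale, in the same order (adjusted p = 0.000177 and 1.51e-05).

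Ccnd2, a D cyclin gene that Myc and growth factors are known to induce (chr6:127125162-127152193, minus strand), had the largest difference between ES cells and MEF of the 10 on the log2 scale. Its levels were 1.74 and 1.47 RPKM in ES cells, 105 and 101 RPKM in MEF, 5.48 and 9.94 RPKM in 3F+IL6 clones, and 3.88 and 4.08 RPKM in 4F clones. Again no groups overlapped, with MEF far above the rest and ES cells lowest. The MEF mean was 64.0-fold that of ES cells (ES minus MEF, log2 difference −5.32 ± 0.22; limma adjusted p = 5.68e-07). Clones exceeded ES cells by 1.69 ± 0.22 in 3F+IL6 and 0.94 ± 0.22 in 4F on the log2 scale (adjusted p = 0.000551 and 0.00726), yet held 7.71 and 3.98 RPKM on average where MEF had 103.

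Ccnd3, the third D cyclin gene (chr17:47505051-47599691, plus strand), ran the other way. ES cells had 245 and 245 RPKM, MEF 66.0 and 66.2 RPKM, 3F+IL6 clones 171 and 151 RPKM, and 4F clones 181 and 168 RPKM. The clone types overlapped each other and lay wholly between ES cells and MEF. The ES mean exceeded that of MEF by 1.87 ± 0.07 on the log2 scale (limma adjusted p = 3.38e-07). Compared with ES cells, Ccnd3 was lower by 0.61 in 3F+IL6 and by 0.49 in 4F, and compared with MEF it was higher by 1.27 and 1.39 (all 4 called). A pseudogene named Ccnd3-ps is annotated on chromosome 4, and reads shared with it may have been counted to either.

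All 16 fibroblast markers were called higher in both clone types than in ES cells, so their levels are given beside those of the D cyclins. Taking ES cells as 0% and MEF as 100% on the RPKM scale, Ccnd1 stood at 23.3% and 41.6% in 3F+IL6 clones 1 and 2, and at 11.4% and 14.1% in 4F clones 1 and 2. Ccnd2 stood at 3.82%, 8.24%, 2.25% and 2.45% in the same clones. The median fibroblast marker stood at 6.94%, 11.5%, 7.59% and 6.00%, with single markers from 1.76% to 269%. Thus the Ccnd1 share lay above the marker median in each clone, and Ccnd2 below it. Within the 3F+IL6 pair, clone 2 had more Ccnd1, Ccnd2 and Cdkn2b, and all 16 fibroblast markers were higher there too. In the 4F pair all 16 were higher in clone 1, as was Cdkn2b, while Ccnd1 and Ccnd2 were higher in clone 2. The part of fibroblast RNA in these levels was not tested.

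**Figure D3:**
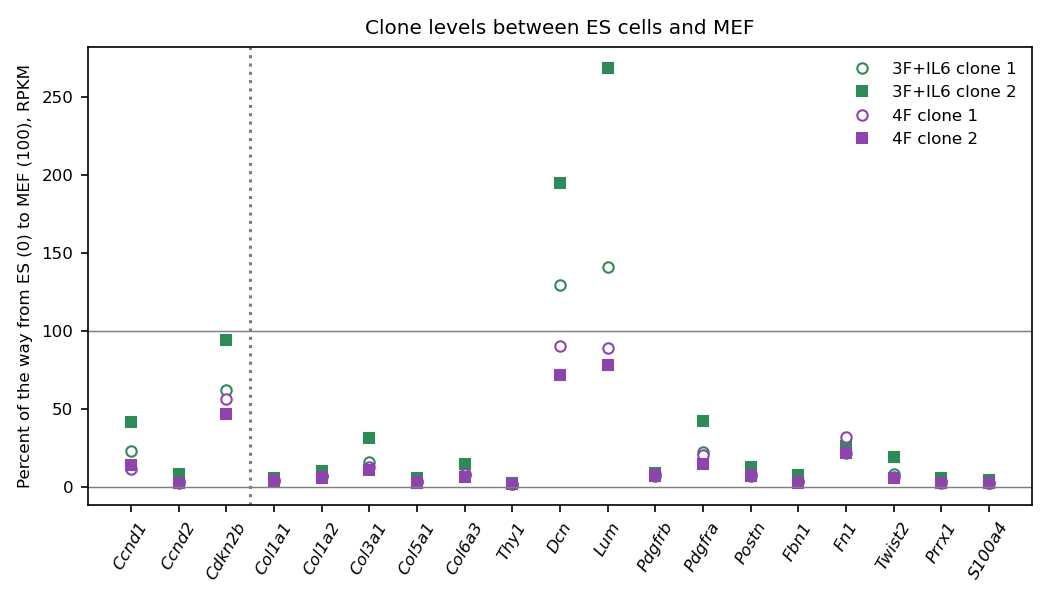
Position of each clone between the ES mean (0) and the MEF mean (100), in percent of that distance in RPKM (vertical axis), for Ccnd1, Ccnd2, Cdkn2b and, right of the dotted line, 16 fibroblast markers. Points are single clones. Ccnd1 lies at 11.4% to 41.6%, Cdkn2b at 46.5% to 94.0%, and the markers have medians of 6.00% to 11.5%. The markers Dcn and Lum lie above Cdkn2b in every clone.

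The kinases that D cyclins activate were unequal in level. Cdk4 (chr10:127063534-127067920, plus strand) was among the abundant transcripts in every library, at 356 and 354 RPKM in ES cells, 265 and 262 RPKM in MEF, 357 and 388 RPKM in 3F+IL6 clones, and 326 and 308 RPKM in 4F clones. Cdk4 made up between 98.2% and 99.0% of the summed RPKM of Cdk4 and Cdk6 in all 8 libraries. MEF were lowest without overlap, and 4F clones lay between MEF and the other 2 groups.

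Cdk4 was higher than in MEF by 0.43 ± 0.05 in ES cells, 0.50 ± 0.05 in 3F+IL6 clones and 0.27 ± 0.05 in 4F clones on the log2 scale (limma adjusted p = 0.000184, 8.25e-05 and 0.0024). The median of all genes in those 3 comparisons was 0.27, 0.26 and 0.25, so the 4F difference was near that of the typical gene tested. Against ES cells, Cdk4 was lower in 4F clones by 0.16 ± 0.05 (adjusted p = 0.0292), a call that was lost without 4F clone 2 (adjusted p = 0.131), without either ES library (0.12 and 0.11) and without either MEF library (0.0598 and 0.0597). In 3F+IL6 clones it differed by 0.07 (95% interval −0.06 to 0.19), and without 3F+IL6 clone 1 it was called higher by 0.13 (adjusted p = 0.0405).

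The Cdk4 promoter is shown because 1 short motif recurs in it. Below, and for the INK4 genes, are the bases upstream of RefSeq transcript starts (GRCm38.p6, the mm10 assembly, read 5′ to 3′ on the strand of the gene), without bases that GENCODE places in an exon. Of the 10 genes, 6 had an entry; Ccnd1, Ccnd2, Ccne2 and Rb1 did not. Capitals mark the E-box CACGTG, the cAMP response element TGACGTCA, and the E2F octamers TTTCCCGC, TTTCGCGC, TTTGCCGC and TTTGGCGC, searched on both strands. These occurred in 6.04%, 1.56% and 1.87% of 32536 windows of 250 bases, and GGGCGG and TATAAA, searched too but not marked, in 33% and 12.3%. Cdk4 (chr10:127063285-127063533, plus strand) carries CACGTG 4 times, beginning 172, 118, 98 and 11 bases before the start; 7 of all windows (0.0215%) hold as many. E-boxes of this sequence are bound by Myc and related factors, and whether any factor was bound there was not measured.
Cdk4: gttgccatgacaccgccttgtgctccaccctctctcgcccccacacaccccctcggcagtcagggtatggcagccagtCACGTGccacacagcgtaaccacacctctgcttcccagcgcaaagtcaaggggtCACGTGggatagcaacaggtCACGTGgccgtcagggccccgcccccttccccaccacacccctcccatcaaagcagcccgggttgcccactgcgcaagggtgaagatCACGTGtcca

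Cdk6 (chr5:3341485-3531008, plus strand), the other D cyclin partner, was low throughout and nearly level. Its values were 4.31 and 4.08 RPKM in ES cells, 4.06 and 4.68 RPKM in MEF, 4.32 and 3.92 RPKM in 3F+IL6 clones, and 3.57 and 3.93 RPKM in 4F clones. ES cells, MEF and 3F+IL6 clones overlapped one another. No comparison was called with limma, the widest being 4F against MEF at −0.17 (95% interval −0.41 to 0.06; adjusted p = 0.14). The interval for ES against MEF, −0.28 to 0.19, leaves room for a modest difference in either direction.

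The E-type cyclins did not move as a pair. Ccne1 (chr7:38097984-38107534, minus strand) encodes cyclin E1, the activator of CDK2 at the entry to S phase. ES cells had 171 and 167 RPKM, MEF 30.3 and 29.8 RPKM, 3F+IL6 clones 173 and 212 RPKM, and 4F clones 173 and 184 RPKM. Every pluripotent library was above both MEF libraries by a wide margin. Compared with MEF, Ccne1 was higher by 2.45 ± 0.09 in ES cells, 2.63 ± 0.09 in 3F+IL6 clones and 2.53 ± 0.09 in 4F clones on the log2 scale (limma adjusted p = 3.66e-07, 3.19e-07 and 3.37e-07). Between clones and ES cells the differences were 0.18 (95% interval −0.04 to 0.40) and 0.08 (−0.14 to 0.29), and neither was called. Without 3F+IL6 clone 1, Ccne1 was called higher in 3F+IL6 than in ES cells, by 0.33 (adjusted p = 0.00159).

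Ccne2 (chr4:11191351-11204779, plus strand), which encodes the related cyclin E2, was a minor transcript. Its levels were 5.55 and 5.68 RPKM in ES cells, 7.31 and 7.42 RPKM in MEF, 2.60 and 3.88 RPKM in 3F+IL6 clones, and 2.88 and 3.19 RPKM in 4F clones. All 4 clones were below all ES and MEF libraries. Against ES cells it was lower by 0.66 ± 0.14 in 3F+IL6 and by 0.71 ± 0.14 in 4F on the log2 scale, and against MEF by 1.00 and 1.05 (limma adjusted p at most 0.00602 in the 4 comparisons). ES cells and MEF differed by −0.34 (adjusted p = 0.062), which became a call under median centring (−0.42; adjusted p = 0.0152), quantile normalization (−0.38; 0.0268), a fit of those 4 libraries alone (0.0015), or without 3F+IL6 clone 1 or 2 (0.00286 and 0.00295). Ccne2 made up 19.4% and 19.95% of the E cyclin sum in MEF, 3.14% and 3.30% in ES cells, and from 1.48% to 1.80% in clones. Exons of Ints8 on the opposite strand cover 17.4% of its exon bases, and Ints8 was at 21.5 to 25.2 RPKM in every library; strand was not stated, so reads there cannot be told apart.

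Rb1 (chr14:73183673-73325822, minus strand), the pocket protein that holds E2F factors, was higher in clones than in ES cells. It stood at 3.48 and 2.87 RPKM in ES cells, 3.92 and 3.65 RPKM in MEF, 7.10 and 4.46 RPKM in 3F+IL6 clones, and 7.66 and 9.01 RPKM in 4F clones. Every clone was above every ES and MEF library, although the 3F+IL6 clones were far apart from each other. The 4F clones exceeded ES cells by 1.16 ± 0.19 and MEF by 0.96 ± 0.19 on the log2 scale (limma adjusted p = 0.00146 and 0.00222). The 3F+IL6 clones exceeded ES cells by 0.68 ± 0.19 (adjusted p = 0.0173), which was not called after quantile normalization (0.54; adjusted p = 0.0615), in a fit of those 4 libraries alone (0.0706) and without ES replicate 2 (0.57; 0.0995). Against MEF the 3F+IL6 difference was 0.47 (adjusted p = 0.0501), and it was called without 3F+IL6 clone 2 (0.76; 0.00141), with a pseudocount of 0.1 (0.56; 0.049) and with a filter of a mean of at least 5 RPKM (0.0469). Rcbtb2, whose exons on the opposite strand cover 8.11% of those of Rb1, was at 10.0 to 16.4 RPKM in clones and 6.76 to 7.69 RPKM in ES cells and MEF. Lpar6, also on the opposite strand, covers 6.78% and was highest in MEF, at 8.82 and 9.25 RPKM. It was at 1.71 and 1.64 RPKM in ES cells and 1.09 to 2.82 RPKM in clones. The part of either gene in the Rb1 values was not tested.

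The INK4 locus was more highly expressed in all clones than in ES cells. Cdkn2a (chr4:89274471-89294653) and Cdkn2b (chr4:89306299-89311039) lie 11645 bases apart on the minus strand. Cdkn2b encodes p15INK4b. Cdkn2a has 2 coding transcripts, for p16INK4a and for p19ARF, an activator of p53; they share 575 exon bases, 67.5% of the first and 64.2% of the second. The tables hold 1 value per symbol, so p16INK4a and p19ARF could not be separated.

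The 3 promoters of the locus differ in base content, as the sequences below show. The ARF promoter (chr4:89294654-89294869) holds an E2F octamer 99 bases before the start and 40 CpG dinucleotides, more than 98.7% of windows. The INK4a promoter (chr4:89282193-89282442) holds none of the marked motifs and 7 CpG, near the median of 6. The Cdkn2b promoter (chr4:89311040-89311282) holds a TGACGTCA 46 bases before the start and 12 CpG. All 3 are on the minus strand, CpG are counted over the full 250 bases, and no marked matches overlap.
Cdkn2a, ARF start: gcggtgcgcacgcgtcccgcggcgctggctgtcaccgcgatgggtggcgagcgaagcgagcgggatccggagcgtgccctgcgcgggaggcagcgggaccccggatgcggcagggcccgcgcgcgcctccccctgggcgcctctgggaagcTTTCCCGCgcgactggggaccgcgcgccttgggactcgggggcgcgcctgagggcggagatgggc
Cdkn2a, INK4a start: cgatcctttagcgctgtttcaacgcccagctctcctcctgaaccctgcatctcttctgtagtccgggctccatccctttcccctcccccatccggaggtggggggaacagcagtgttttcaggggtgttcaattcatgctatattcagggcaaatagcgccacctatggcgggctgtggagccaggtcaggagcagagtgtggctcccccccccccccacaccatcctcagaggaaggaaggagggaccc
Cdkn2b: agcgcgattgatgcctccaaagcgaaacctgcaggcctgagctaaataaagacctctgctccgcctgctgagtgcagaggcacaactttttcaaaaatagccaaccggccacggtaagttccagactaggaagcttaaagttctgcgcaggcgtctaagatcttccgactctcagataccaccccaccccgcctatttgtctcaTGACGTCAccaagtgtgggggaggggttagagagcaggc

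Cdkn2a was at 11.7 and 12.2 RPKM in ES cells, 18.9 and 21.2 RPKM in MEF, 32.9 and 40.7 RPKM in 3F+IL6 clones, and 44.9 and 39.0 RPKM in 4F clones. All 4 clones were above MEF, and MEF above ES cells, while the clone types overlapped. The clones exceeded ES cells by 1.54 ± 0.12 in 3F+IL6 and 1.73 ± 0.12 in 4F on the log2 scale (limma adjusted p = 5.6e-05 and 3.55e-05). They exceeded MEF by 0.84 ± 0.12 and 1.03 ± 0.12 (adjusted p = 0.000371 and 0.000117). ES cells were below MEF, with a difference of −0.70 ± 0.12 (adjusted p = 0.000992).

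Cdkn2b was nearly silent in ES cells, at 1.75 and 0.918 RPKM, or about 39 and 19 reads at the estimated depth. MEF had 18.2 and 19.3 RPKM, 3F+IL6 clones 12.15 and 17.7 RPKM, and 4F clones 11.15 and 9.44 RPKM. ES cells were far below all other libraries, MEF were highest, and the 3F+IL6 clones lay between MEF and 4F. The clones exceeded ES cells by 2.77 ± 0.22 in 3F+IL6 and 2.30 ± 0.22 in 4F on the log2 scale (limma adjusted p = 5.93e-05 and 0.000124), and ES cells were below MEF with a difference of −3.11 ± 0.22 (7.67e-06).

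In 4F clones Cdkn2b was below MEF, with a log2 difference of −0.81 ± 0.22 (adjusted p = 0.00954); this call was lost without MEF replicate 2 (0.0516) and without 4F clone 2 (0.0641). In 3F+IL6 clones the difference from MEF was −0.33 (adjusted p = 0.188), and it was called without 3F+IL6 clone 2 (−0.59; 0.0346). Cdkn2a made up 87.0% and 93.0% of the RPKM of the pair in ES cells, 50.9% and 52.4% in MEF, 73.0% and 69.7% in 3F+IL6 clones, and 80.1% and 80.5% in 4F clones. On the ES to MEF scale Cdkn2b stood at 62.1% and 94.0% in 3F+IL6 clones and 56.3% and 46.5% in 4F clones. These were above the fibroblast marker medians given with the D cyclins. The markers Dcn and Lum stood above Cdkn2b in every clone, at 129% and 195% (Dcn) and 141% and 269% (Lum) in 3F+IL6. In 4F clones they were at 90.5% and 71.7% (Dcn) and 88.9% and 78.4% (Lum). The other markers stood below Cdkn2b.

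**Figure D4:**
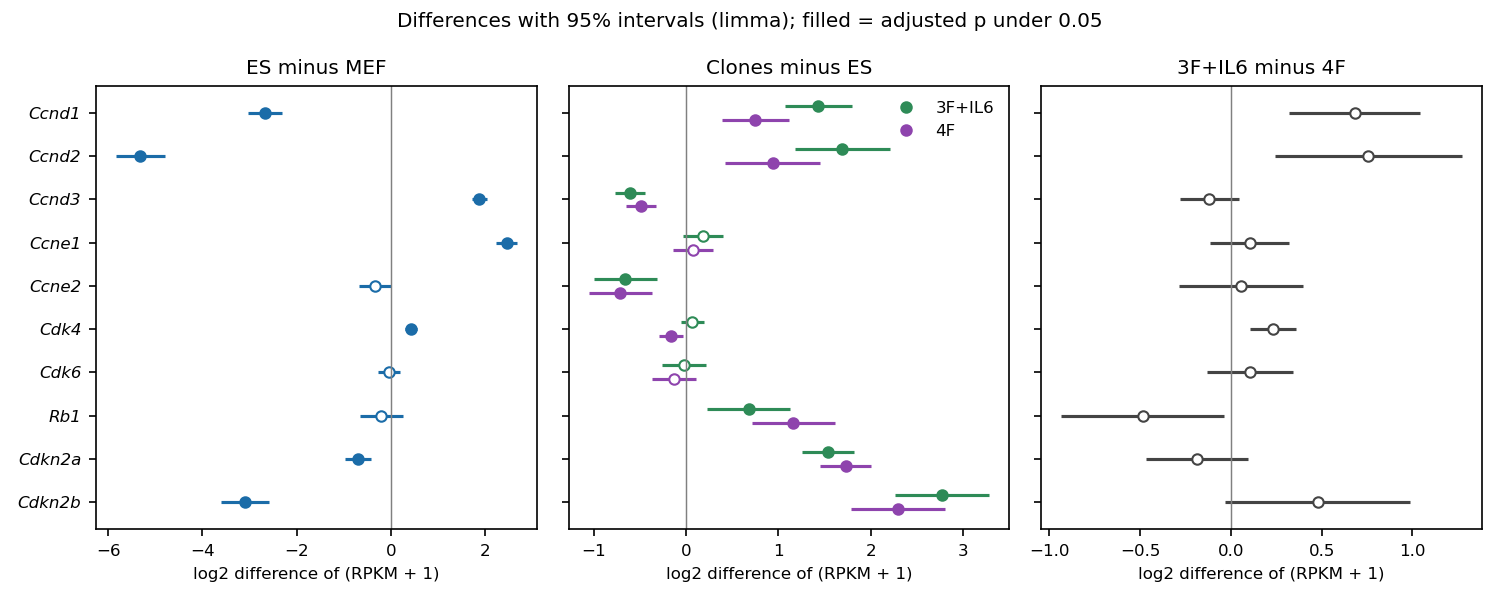
Differences of log2(RPKM + 1) (horizontal axes) for the 10 genes in 3 panels: ES minus MEF, each clone type minus ES, and 3F+IL6 minus 4F. Points are limma estimates with 95% intervals, filled where the adjusted p is under 0.05; Cdkn2a and Cdkn2b are filled and positive for both clone types against ES, and no point is filled between clone types.

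Against the range spanned by ES cells and MEF, Ccne1, Rb1 and Cdkn2a were higher in all 4 clones than in any ES or MEF library, and Ccne2 was lower. Of all genes tested, 23.5% lay above that range and 14.9% below it in all 4 clones, so 3 and 1 of 10 genes are near those shares. For Ccne1 the margin was small, with the lowest clone at 173 RPKM and the highest ES library at 171 RPKM.

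The comparison of the clone types addresses whether cells made with 3 factors and IL6 differ from cells made with 4. The largest differences among the 10 genes were in Ccnd2, higher in 3F+IL6 by 0.76 ± 0.22 on the log2 scale (limma adjusted p = 0.114), and Ccnd1, higher by 0.68 ± 0.15 (0.0748). Rb1 differed by −0.49 (95% interval −0.93 to −0.04; adjusted p = 0.182), Cdkn2b by 0.48 (−0.03 to 0.99; 0.228), and Cdk4 by 0.23 (0.11 to 0.36; 0.0772). The groups did not overlap for Ccnd1, Ccnd2, Cdk4, Rb1 and Cdkn2b, and they overlapped for Ccnd3, Ccne1, Ccne2 and Cdkn2a. For Cdk6 they overlapped too, with a difference of 0.11 (−0.13 to 0.34). How many of all genes separate in this way was not counted. With 2 libraries a group, pairs can separate without a difference in level, so non-overlap adds nothing to the tests. The estimates, and whether any of the 10 genes was called, depended on which 3F+IL6 clone was used. Without clone 1 the difference was 0.94 for Ccnd1 and 1.13 for Ccnd2, and without clone 2 it was 0.42 for Ccnd1. Such a fit assumes that the remaining clone varies as the other groups do.

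Of the other CDK inhibitor genes, Cdkn1a, Cdkn1b and Cdkn1c were, like the INK4 pair, called higher in both clone types than in ES cells. For Cdkn1b the differences were 0.67 in 3F+IL6 and 0.54 in 4F on the log2 scale (limma adjusted p = 0.00721 and 0.017). Cdkn2c was called higher in 4F clones only, and Cdkn2d in neither clone type. Among these 5 genes, 3 were called higher in 3F+IL6 clones than in ES cells and 4 in 4F clones, none lower. Over all genes tested, 33.1% and 33.7% were called higher, and 30.3% and 33.5% lower. Median log2 differences of the 5 were 0.67 and 0.54 (0.01 and 0.00 over all genes). Cdkn1a, which encodes the p53 target p21, was at 10.6 and 10.5 RPKM in ES cells, 208 and 208 RPKM in MEF, 65.3 and 60.7 RPKM in 3F+IL6 clones, and 82.5 and 72.5 RPKM in 4F clones. The clones lay between ES cells and MEF without overlap, 2.47 ± 0.07 and 2.76 ± 0.07 above ES cells on the log2 scale (limma adjusted p = 2.19e-06 and 1.9e-06). Cdkn1c, which encodes p57, was at 1.04 and 0.789 RPKM in ES cells, 7.01 and 7.08 RPKM in MEF, 14.0 and 11.0 RPKM in 3F+IL6 clones, and 11.0 and 8.26 RPKM in 4F clones. All 4 clones exceeded every MEF and ES library, and the differences from ES cells were 2.81 ± 0.16 and 2.46 ± 0.16 (adjusted p = 1.74e-05 and 3e-05). Cdkn2c, another INK4 gene, was mainly a MEF transcript, at 5.79 and 4.55 RPKM against 0.409 and 0.553 RPKM in ES cells (log2 difference −2.05; adjusted p = 1.59e-05).

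Among 12 pocket protein and E2F genes, 3 were called higher and 5 lower in 3F+IL6 clones than in ES cells. In 4F clones 2 were higher and 4 lower. Of all genes tested, 33.1% were called higher and 30.3% lower in 3F+IL6 clones, and 33.7% and 33.5% in 4F clones. The counts lie within a few genes of those shares. Rbl2, a relative of Rb1, was at 0.789 and 0.837 RPKM in ES cells, 2.49 and 2.26 RPKM in 3F+IL6 clones and 2.81 and 3.22 RPKM in 4F clones, higher than in ES cells by 0.90 and 1.15 on the log2 scale. The activator E2f1 was higher by 0.63 and 0.55 in the same comparisons, whereas E2f2 was lower by 1.11 and 1.35, E2f3 by 0.90 and 1.51, and E2f6, a repressor, by 0.88 and 1.01 (limma adjusted p at most 0.00835 for these). Members of the family thus moved in both directions, and the list medians were −0.0037 and −0.11. Against MEF, 6 of the 12 were called higher in each clone type, with 1 lower in 3F+IL6 and 3 lower in 4F. In ES cells 5 were higher and 2 lower. Shares of all genes were 49.4% and 32.6% in 3F+IL6, 49.2% and 34.4% in 4F, and 49.7% and 32.0% in ES cells.

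Targets of E2F and cell division genes were mostly lower in MEF. Of 18 S phase genes, 16 were called higher in ES cells than in MEF, 17 in 3F+IL6 clones and 17 in 4F clones, with median log2 differences of 1.67, 1.52 and 1.56, where all genes had 0.27, 0.26 and 0.25. Mcm7, of the replicative helicase, was at 42.0 and 42.1 RPKM in MEF and from 217 to 260.3 RPKM in the other libraries. Of 15 genes of G2 and mitosis, 12, 14 and 14 were higher than in MEF. Of 14 kinases, activators and turnover factors of the G1/S step, 14, 12 and 11 were. Beside these lists, 49.7% of all genes tested were called higher than in MEF in ES cells, 49.4% in 3F+IL6 clones and 49.2% in 4F clones. Cdk2, the cyclin E partner, was at 17.4 and 17.9 RPKM in MEF, 42.9 and 42.1 RPKM in ES cells, and 47.4 to 57.3 RPKM in clones.

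Clones and ES cells differed less in these lists. The shares of all genes called higher and lower than in ES cells were 33.1% and 30.3% in 3F+IL6 clones, and 33.7% and 33.5% in 4F clones. Among the S phase genes 8 were higher and 2 lower in 3F+IL6 clones, and 7 and 3 in 4F clones, with medians of 0.11 and 0.03. Rrm2, a subunit of ribonucleotide reductase, was at 133 and 131 RPKM in ES cells and from 326 to 394 RPKM in the clones, higher by 1.39 in 3F+IL6 and 1.54 in 4F on the log2 scale (limma adjusted p = 7.35e-06 and 5.37e-06). Among the G2 and mitosis genes 9 and 10 were higher and 1 lower in each case, the last being Foxm1, a transcription factor of mitotic genes, at −1.11 and −1.41. Of the G1/S kinases and turnover factors 3 were higher and 7 lower in 3F+IL6 clones, and 4 and 7 in 4F clones. Those lower included Fbxw7 and Cul1, parts of ubiquitin ligases that degrade cyclin E: Cul1 was at 65.5 and 67.0 RPKM in ES cells and from 22.9 to 37.1 RPKM in clones. Skp1a, a subunit of the same kind of ligase, went the other way, at 191 and 187 RPKM in ES cells and from 258 to 336 RPKM in clones, higher by 0.63 in 3F+IL6 and 0.68 in 4F (adjusted p = 0.00219 and 0.00139).

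Genes known to regulate the INK4 locus, or to act downstream of ARF, were also listed. Of 14 such genes, 2 were called higher and 5 lower in 3F+IL6 clones than in ES cells. In 4F clones 2 were higher and 7 lower, and the medians were −0.16 in 3F+IL6 and −0.23 in 4F. All genes tested had 33.1% higher and 30.3% lower in 3F+IL6 clones, and 33.7% and 33.5% in 4F clones. Bmi1, a Polycomb subunit that represses the locus, was at 8.75 and 7.62 RPKM in ES cells, 14.0 and 14.5 RPKM in MEF, 2.91 and 3.89 RPKM in 3F+IL6 clones, and 3.13 and 3.69 RPKM in 4F clones. All 4 clones were below every ES and MEF library, with log2 differences from ES cells of −1.07 ± 0.13 and −1.06 ± 0.13 (limma adjusted p = 0.000456 and 0.000432). Rnf2, a Polycomb ubiquitin ligase, was lower than in ES cells by 1.31 and 1.21, and Trp53, which encodes p53, by 0.35 and 0.57. The Polycomb genes did not all fall: Ezh2, a histone methyltransferase that also represses the locus, was at 65.8 and 67.5 RPKM in ES cells and from 76.2 to 91.2 RPKM in clones, higher by 0.32 and 0.43 (adjusted p = 0.0125 and 0.00302). Cbx7, another Polycomb subunit, was at 0.979 and 1.03 RPKM in MEF and at 43.9 to 51.9 RPKM in all other libraries. Against MEF, 8 of the 14 were higher and 6 lower in each clone type, and 8 higher and 4 lower in ES cells. Shares of all genes were 49.4% and 32.6% in 3F+IL6, 49.2% and 34.4% in 4F, and 49.7% and 32.0% in ES cells.

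Between the clone types none of the genes in these 6 lists was called, with 2 of 5, 3 of 12, 3 of 14, 1 of 18, 2 of 15 and 4 of 14 at an unadjusted p under 0.05, in the order CDK inhibitors, pocket proteins and E2F factors, G1/S kinases and turnover, S phase, G2 and mitosis, and INK4 regulators. The share among all genes tested was 24.2%.

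The genes whose profiles over the 8 libraries were nearest to each member were found by the root mean square (RMS) difference of centred log2(RPKM + 1). Nearest to Ccnd1 were Ttyh3 (RMS 0.12) and Synpo (0.13), and nearest to Ccnd2 were Wnt5a (0.12) and Itpripl2 (0.13). Ccnd3 was nearest to N4bp1 and Dhx32 (both 0.07), Ccne1 to 8430410A17Rik (0.06) and AI314976 (0.07), and Ccne2 to Tfb2m (0.05) and Stx18 (0.06). For Cdk4 these were Mrps18a and Psmb5 (both 0.05), and for Cdk6 Rabgap1 and Nedd4 (both 0.06). Rb1 had Plod2 and Slc37a4 (both 0.12), Cdkn2a had Mosc2 (0.13) and Ppp2r5c (0.14), and Cdkn2b had Gja1 (0.16) and Gpnmb (0.18). The RMS spread of the members themselves ran from 0.09 for Cdk6 to 2.02 for Ccnd2. Cdk6 was nearly flat, and its neighbours at 0.06 were not far below its own spread, so their nearness says little.

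Ccnd1 and Cdk4 also share exon bases with genes on the opposite strand. LTO1, listed as Oraov1, covers 23.4% of Ccnd1 exon bases and was at 5.62 to 7.92 RPKM, and Tspan31 covers 19.7% of those of Cdk4 and was at 48.0 to 69.2 RPKM. The part of these genes in the Ccnd1 and Cdk4 values was not tested.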

How the data were processed

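Poly-A RNA from the 8 cultures was sequenced as 50 bp reads after TruSeq RNA v2 preparation, per the labels' protocols, and mm10 is the build named in the submitters' processing notes. For the aligner, counting, gene models and strand handling the entry is: not given in the sources used here. The values the authors deposited, 1 per gene symbol and sample, were taken as RPKM, that is, already scaled for transcript length and depth; the files do not name the unit, which was inferred from the values. Each table has 23390 rows, of which 1 without a numeric value was dropped. Depth was estimated from the step between low values; whole reads could not be recovered for nearly all genes, so no count test was run. Genes with at least 1 RPKM in at least 2 libraries were tested on log2(RPKM + 1) with limma 3.58.1 in R 4.3.3 (trend, 4 groups, all 8 libraries, Benjamini-Hochberg adjustment over 13200 genes); the code was tested on simulated data. Each of 6 comparisons was refitted with other pseudocounts, filters, scalings, variance settings and sample sets, with a replicate block, and without each library. The labels' replicate numbers were treated as names only. Levels are compared between genes only as RPKM, which is per length.

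Members and lists were chosen with earlier results of these data known. The text names all members and the 2 nearest profiles per member. Open to naming were called list genes with the largest differences (up to 4 per list and comparison, mean of at least 5 RPKM in the higher group). Any CDK inhibitor, pocket protein, E2F or marker gene was open to naming too. Only part of these genes is named, so those shown are examples. Ets1, Cdt1 and E2f4 are among those left out. Gene coordinates are from GENCODE vM21, and promoter sequences from RefSeq (GRCm38.p6).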

Additional observations from a re-analysis of the deposited data

Results flagged for a closer look

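For Cdk4 the clone types lay on opposite sides of the ES mean of 355 RPKM: the 3F+IL6 clones were at 357 and 388 RPKM and the 4F clones at 326 and 308 RPKM. The lower 3F+IL6 clone was close to ES replicate 1, at 356 RPKM. The difference from ES cells was not called in 3F+IL6 (0.07 on the log2 scale, 95% interval −0.06 to 0.19; limma adjusted p = 0.296), and the call in 4F (−0.16; 0.0292) was lost without the variance trend (0.0794), without 4F clone 2 (0.131), and without any 1 ES or MEF library (0.0597 to 0.12). The direct test between the clone types gave 0.23 (95% interval 0.11 to 0.36; adjusted p = 0.0772), short of the threshold.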

How the results depend on the processing

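Over the 10 genes, 6 comparisons and all settings, 908 of 948 values kept their direction and side of the threshold, 23 gained a call, 11 lost one and 6 changed sign. The sign changes were all in differences that were not called: without single libraries Cdk6 ran from −0.079 to 0.034 between 3F+IL6 and ES (0.010 without ES replicate 1), from −0.15 to 0.015 between 3F+IL6 and MEF and from −0.13 to 0.038 between ES and MEF, and between clone types Ccne1 ran from −0.042 to 0.25 and Ccne2 from −0.16 to 0.28, with the negative values without 3F+IL6 clone 2. The count of all genes called between clone types was 177, and it was 56 with a pseudocount of 0.1, 315 with quantile normalization, 12 in a fit of those 4 libraries alone, and 6 to 4802 without single libraries, with 4802 without 3F+IL6 clone 1, 819 without clone 2, 8 without any 1 ES or MEF library and 6 without either 4F clone. The number of the 10 genes called there was 0 to 8 without single libraries. The highest number was found without 3F+IL6 clone 1, the fit in which the count of all genes called was highest too. It therefore does not set the 10 genes apart from the other genes. The cause of these shifts was not tested. With a replicate block the count of all genes was 36, and Rb1 in 3F+IL6 against MEF (adjusted p = 0.0466) and Ccne2 in ES against MEF (0.0468) were called; same-numbered libraries deviated together with correlations from −0.06 to 0.21, so the numbers were not taken as pairs. Scaling moved the median of all genes by −0.11 in 3F+IL6 against MEF under median centring, and under quantile normalization by −0.20, −0.16 and −0.13 in 3F+IL6, 4F and ES against MEF; under the latter Cdk6 in 4F against MEF was called (−0.28; 0.0493). Cdk4 in 4F against ES was not called without the variance trend (0.0794). Genes with a mean under 5 RPKM have no value under the stricter filter. With 2 libraries a group, the width of the intervals limits what can be said of a difference that was not called, and depth is known only as an estimate.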
